A study of Mus musculus with 12 samples.

Results

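Rab proteins are small GTPases that mark the membranes of the cell and direct the traffic between them. The genes described here are the rows of the deposited expression table whose symbol is Rab followed by a number and, where present, a letter or a further number. They came to 50 genes of 14541 listed, and 43 of them were among the 11242 genes tested. By known role, 11 were assigned to the endoplasmic reticulum and Golgi, 7 to the early endosome, 7 to recycling, 9 to the late endosome and lysosome, 11 to secretion, 2 to lysosome-related organelles and 3 to other tasks.

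The libraries came from microglia, the resident macrophages of the brain, isolated from the forebrains of wild-type mouse pups aged 7 to 9 postnatal days and selected on magnetic beads by their surface protein CD11b. Each well held 40000 to 80000 cells. For 6 h, 1 group of 4 libraries received 500 nM of the recombinant astrocyte protein Hevin, another group of 4 received 50 ng/mL of the bacterial lipopolysaccharide LPS, and the 4 Media libraries received growth medium only. CD11b is carried by other myeloid cells too, so the beads do not select microglia alone. The libraries of each group bear the numbers 1 to 4, and all values per library below follow that order.

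A Rab is inactive with GDP bound and active with GTP bound. Exchange factors load GTP and GTPase-activating proteins end the active state. A lipid anchor added by the prenylation machinery holds the protein on the membrane, and GDP dissociation inhibitors take it off again. Active Rabs recruit effectors that tether, move or fuse vesicles. In macrophages and microglia these proteins carry phagosomes to the lysosome, return receptors to the surface, move Toll-like receptors and deliver cytokines for release.

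The unit of level is FPKM, fragments scaled to gene length and to the depth of the library, so genes of different length can be set side by side. Fold changes are on the log2(FPKM + 1) scale, given ± SE, from 1 limma fit over the 12 libraries with the number as a block. A gene is called higher or lower at a Benjamini-Hochberg adjusted p under 0.05 over all genes tested. Nothing in the labels tells if each library stands for its own animals or culture, and the spread behind every p-value may be technical. Depth was 18343996 to 27361665 reads per library in the listed genes. All 16 microglia and macrophage markers were present, with a summed level of 2924 to 3654 FPKM in Hevin, 1907 to 2484 FPKM in LPS and 2252 to 2543 FPKM in Media. The summed level of 4 neutrophil markers averaged 1972 FPKM over the 3 libraries numbered 2 and 63.5 to 70.5 FPKM over those of the other numbers. Every group held 1 library of number 2, so counts were also taken without these 3 libraries. Endothelial markers summed to 26.3 to 156 FPKM and neuronal markers to 2.44 to 20.5 FPKM over all libraries, highest in number 3 in every group. Markers of border macrophages, which also carry CD11b, summed to 557 to 759 FPKM in Hevin, 644 to 807 FPKM in LPS and 768 to 897 FPKM in Media, with no overlap between Hevin and Media. Of these, Mrc1 stood at 62.8 to 89.4 FPKM in Hevin and 136 to 172 FPKM in Media, and Ms4a7 at 35.8 to 43.1 FPKM in Hevin and 17.4 to 24.3 FPKM in Media. Markers of the oligodendrocyte lineage summed to 29.7 to 45.3 FPKM in Hevin, 11.9 to 16.0 FPKM in LPS and 16.4 to 22.4 FPKM in Media, the difference between Hevin and Media being mostly Cspg4, and the part of both kinds of cell in the changes below was not tested. In bulk RNA, fewer cells of a type and less RNA per cell cannot be told apart.

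The most abundant Rab transcripts in Media belonged to the Golgi, late endosome, early endosome and secretion steps. Rab1 stood at 172 ± 2.65 FPKM, Rab7 at 164 ± 12.1 FPKM, Rab5c at 123 ± 12.9 FPKM, Rab7b at 118 ± 22.7 FPKM and Rab10 at 109 ± 14.0 FPKM (SD, n = 4). The sum over the 50 genes was 1670 ± 138 FPKM in Hevin, 1975 ± 104 FPKM in LPS and 1701 ± 81.4 FPKM in Media. As a share of all listed FPKM this was 0.532% ± 0.0252 in Hevin, 0.468% ± 0.0176 in LPS and 0.524% ± 0.0167 in Media. The sum over all listed genes was itself higher in LPS, at 422173 ± 6273 FPKM, against 313555 ± 12232 FPKM in Hevin and 324698 ± 5325 FPKM in Media. The early endosome genes summed to 407 ± 23.7 FPKM in Hevin, 565 ± 55.9 FPKM in LPS and 418 ± 14.5 FPKM in Media. Secretion genes summed to 219 ± 23.8 FPKM in Hevin, 290.0 ± 21.7 FPKM in LPS and 225 ± 22.4 FPKM in Media, nearly all of it from Rab10, Rab8b and Rab8a.

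**Figure D1:**
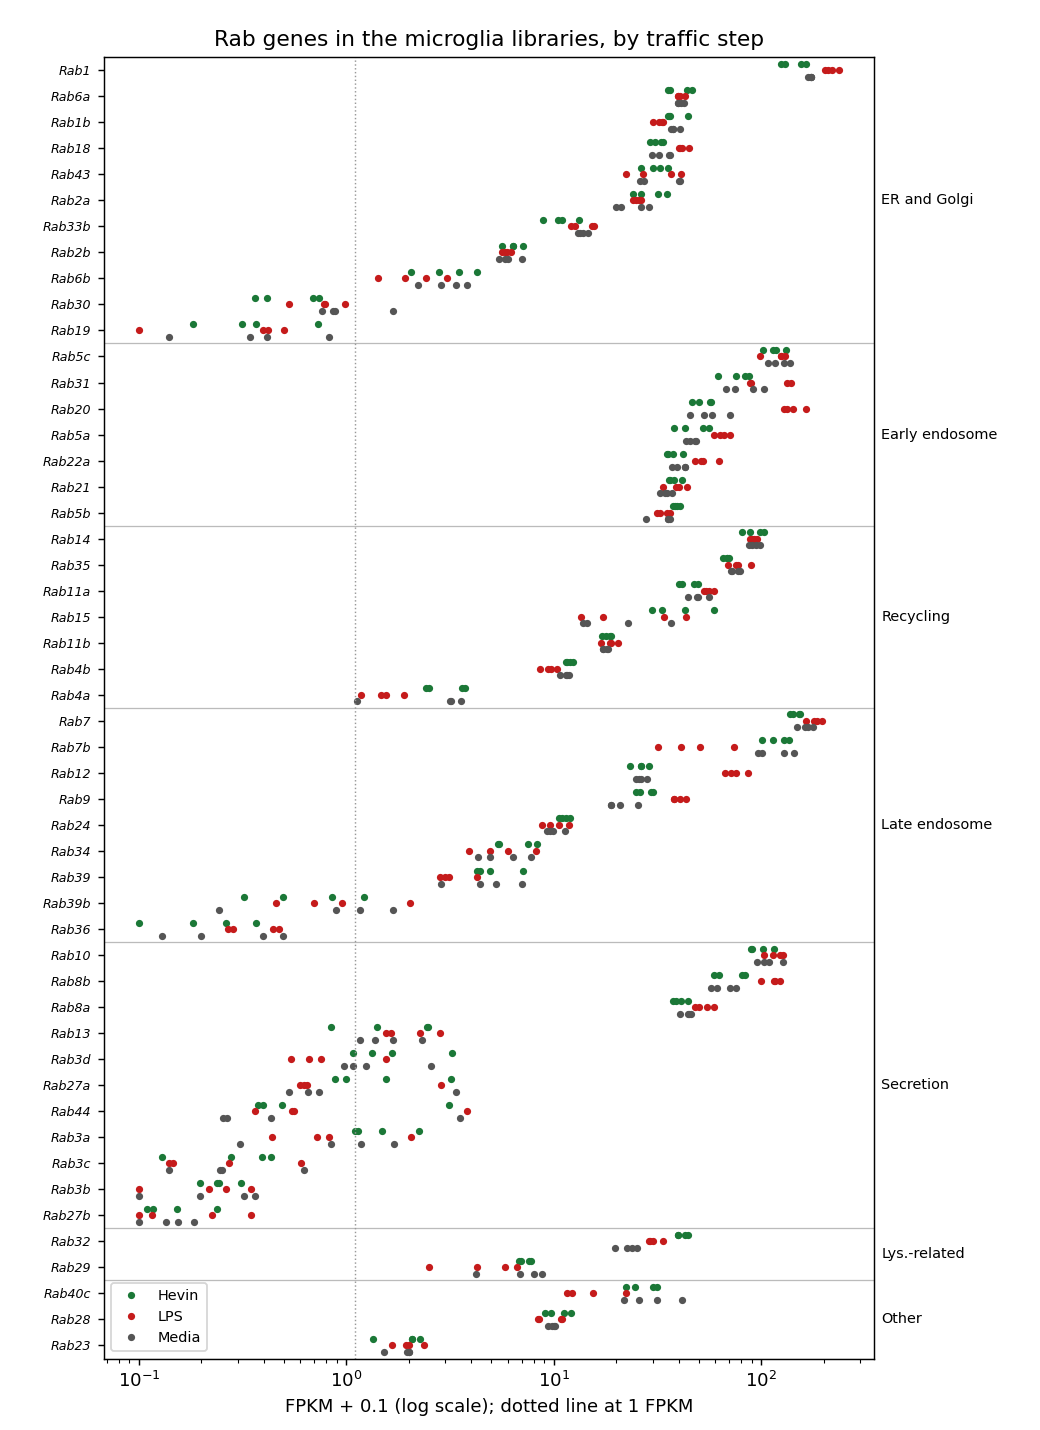
Level of each of the 50 Rab genes in the 12 libraries, as FPKM + 0.1 on a log axis, with 1 point per library (Hevin green, LPS red, Media grey) and genes grouped by traffic step and ordered by their Media mean. Rab12, Rab20, Rab9 and Rab8b have their LPS points to the right of all others, and Rab7b has them to the left.

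Of the 50 members, 7 stayed below the level needed for testing, which was 1 FPKM in at least 4 libraries. They were Rab19 and Rab30 of the Golgi, Rab36 of the late endosome, and Rab3b, Rab3c, Rab27b and Rab44 of secretion. Rab30 had 393 reads over the 12 libraries and Rab3c 532, while Rab19, Rab3b, Rab27b and Rab36 had 116 to 156 each. These counts are too low for a comparison between groups. Rab44 was low in 9 libraries and above 3 FPKM in the 3 libraries numbered 2, as described further on.

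With Hevin, few Rab genes moved. Rab32 and Rab15 were the largest rises, at 0.84 ± 0.0725 and 0.95 ± 0.118 on the log2 scale, and Rab9 rose by less. Rab1 and Rab33b, both of the Golgi, fell. Of 43 genes tested, 3 were higher and 2 lower, which is 11.6% of the Rab genes, against 21.4% of all genes tested that were called in this comparison (10.8% higher and 10.6% lower). The median log2 fold change was 0.03 over the Rab genes and 0.0002 over all genes tested. Without Hevin 3 the count was 2, and without Hevin 4 or Media 3 it was 3. Without the replicate block it was 2, with Rab32 and Rab9 higher, against 7.37% of all genes. By quantile normalization the 5 calls were 4 higher and 1 lower. Without the 3 libraries numbered 2 they were again 3 higher and 2 lower.

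With LPS, many Rab genes moved, and they moved in both directions. Rab12 and Rab20 rose to 2.87 and 2.52 times their Media means, and Rab9 and Rab8b to 1.90 and 1.72 times. Rab7b fell to 0.419 and Rab40c to 0.508 of their Media means. Of 43 tested, 11 were higher and 9 lower. That is 46.5%, against 43.7% of all genes tested that were called in this comparison (21.5% higher and 22.2% lower), so the share of Rab genes called lay near the background. The median log2 fold change was 0.03 over the Rab genes and −0.02 over all genes tested. Libraries of the groups did not overlap for 13 of the 43, against 25.6% of 11241 genes. By traffic step and with the deposited scaling, the early endosome had 4 of 7 higher and 0 lower, with a median log2 fold change of 0.39. Secretion had 2 of 7 higher and 1 lower, and the Golgi and late endosome steps each had 2 higher and 2 lower. The recycling step had 0 higher and 2 lower.

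How the libraries are scaled bears on these counts. The deposited values hold a scaling factor for each library, of 0.804 to 0.897 in LPS and 1.02 to 1.16 in Hevin and Media. Without these factors the median log2 fold change over all genes moved by −0.27 in LPS against Media and by 0.30 in Hevin against LPS. The Rab split in LPS against Media was then 4 higher and 23 lower, with 8 and 10 by upper quartile scaling and 5 and 12 by quantile normalization. Beside these splits, the median log2 fold change without the factors was −0.29 over all genes tested and −0.23 over the Rab genes. These medians were −0.12 and −0.06 by upper quartile scaling, and −0.05 and −0.01 by quantile normalization. In Hevin against LPS the split was 26 higher and 4 lower without the factors, 17 and 12 by upper quartile scaling, which moved the median over all genes by 0.11, and 18 and 6 by quantile normalization. Medians over all genes and over the Rab genes were 0.32 and 0.33 there without the factors. They were 0.12 and 0.11 by upper quartile scaling, and 0.04 and 0.17 by quantile normalization. Rab12, Rab20, Rab9, Rab8b, Rab7b and Rab40c kept their LPS calls and directions under all 24 alternatives run. Of the other early endosome genes higher with LPS, Rab5a, Rab22a and Rab31 lost their calls by quantile normalization and without the factors (adjusted p = 0.0553 to 0.958). In the same fits Rab5c of that step was called lower (adjusted p = 8.82e-05 and 2.11e-04). Without the replicate block 10 Rab genes were higher and 3 lower with LPS, against 25.8% of all genes called. Without the 3 libraries numbered 2 they were 13 and 7.

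**Figure D2:**
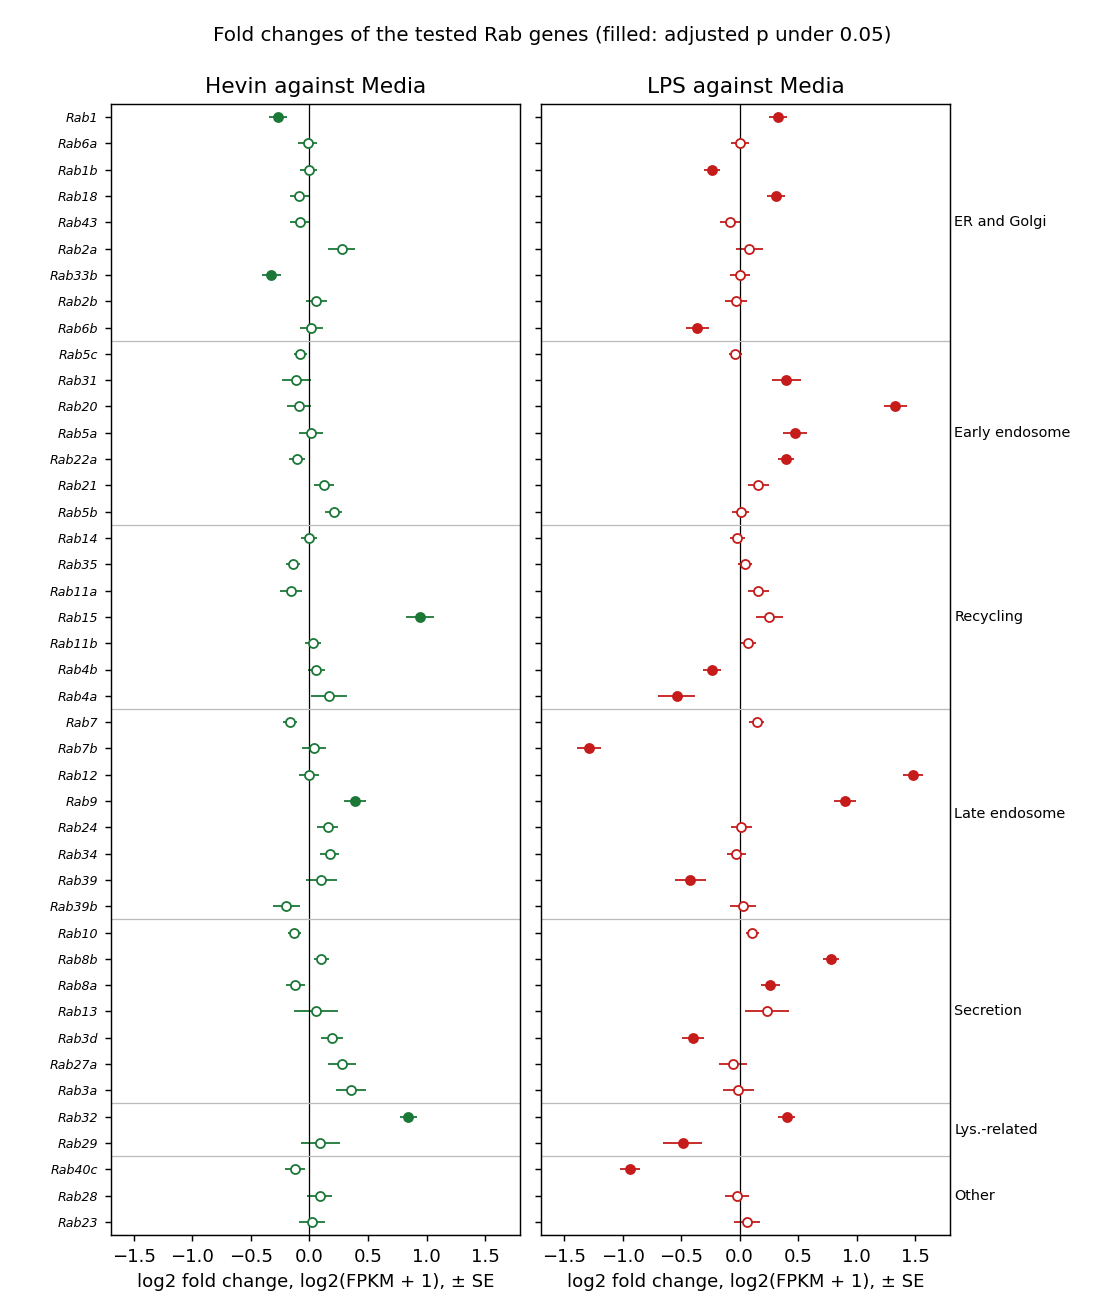
Log2 fold change ± SE of the 43 tested Rab genes in Hevin against Media (left) and LPS against Media (right), on the log2(FPKM + 1) scale, ordered by traffic step; filled points have an adjusted p under 0.05. With Hevin 5 points are filled, and with LPS 20 are, from −1.29 for Rab7b to 1.48 for Rab12.

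The sequences just before the start sites of the 5 largest LPS rises are shown here because the LPS results turn on these genes. They are the bases before the RefSeq start on GRCm38.p6, at most 250, read 5′ to 3′ on the strand of the gene. Bases that lie inside the gene as annotated by GENCODE were left out. Of the 50 genes, 41 had such a window. Capitals mark the E-box CACGTG, a palindrome bound by basic helix-loop-helix factors. The Rab12 stretch is chr17:66519730-66519920 on the minus strand, that of Rab20 chr8:11478711-11478890 on the minus strand and that of Rab9 chrX:166479868-166480117 on the minus strand. The Rab8b stretch is chr9:66919706-66919955 on the minus strand, and that of Rab5a chr17:53478984-53479233 on the plus strand.
Rab12: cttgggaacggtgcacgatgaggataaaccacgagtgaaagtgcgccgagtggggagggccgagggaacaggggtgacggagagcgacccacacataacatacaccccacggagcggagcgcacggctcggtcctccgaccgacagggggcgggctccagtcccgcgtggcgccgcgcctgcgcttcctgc
Rab20: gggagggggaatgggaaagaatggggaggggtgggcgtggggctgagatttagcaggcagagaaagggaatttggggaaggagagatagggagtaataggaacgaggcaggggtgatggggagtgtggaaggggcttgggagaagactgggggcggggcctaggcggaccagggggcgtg
Rab9: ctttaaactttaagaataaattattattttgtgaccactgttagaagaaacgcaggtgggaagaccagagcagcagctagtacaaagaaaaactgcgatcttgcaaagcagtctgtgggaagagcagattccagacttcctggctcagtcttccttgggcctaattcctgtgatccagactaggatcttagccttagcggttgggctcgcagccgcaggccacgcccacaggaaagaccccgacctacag
Rab8b: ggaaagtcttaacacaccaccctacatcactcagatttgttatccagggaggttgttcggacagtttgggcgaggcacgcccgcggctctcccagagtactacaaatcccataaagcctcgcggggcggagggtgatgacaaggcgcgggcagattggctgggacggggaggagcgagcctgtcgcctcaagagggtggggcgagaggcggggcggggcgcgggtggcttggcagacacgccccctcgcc
Rab5a: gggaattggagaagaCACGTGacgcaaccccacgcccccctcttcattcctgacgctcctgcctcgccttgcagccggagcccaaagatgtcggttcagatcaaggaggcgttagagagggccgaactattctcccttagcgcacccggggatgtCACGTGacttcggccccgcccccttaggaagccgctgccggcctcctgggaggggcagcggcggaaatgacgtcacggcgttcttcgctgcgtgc

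Windows of 250 bases were searched on both strands for 5 motifs, and no match named here overlaps a match of another motif. The E-box CACGTG was found in 6.02% of 32851 windows and the AP-1 motif TGANTCA in 6.75%. The kappaB motif was found in 5.0%, the interferon response motif GAAANNGAAA in 2.98% and the PU box GAGGAAGT in 2.44%. Of the 11 genes higher with LPS, 9 had a window. Distances are to the RefSeq start. Among the 9 the E-box was found in Rab5a, at 235 and 95 bases before the start, and in Rab20, at 46 bases before the start. The Rab20 match lies inside the gene as annotated by GENCODE, and so outside the stretch printed above. The PU box was found in Rab32, at 43 bases before the start, and the letters of the other 3 motifs were in none of the 9 windows. Among the 7 genes lower with LPS that had a window, none of the 5 motifs was found. A match describes these letters and is not a binding site.

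Of the 9 tested genes between the endoplasmic reticulum and the Golgi, 2 were called with Hevin and 4 with LPS. These shares, 22.2% and 44.4%, lay near the 21.4% and 43.7% of all genes tested. Rab1 is the symbol under which the files hold the Rab that tethers vesicles leaving the endoplasmic reticulum. It had 155, 165, 124 and 130.1 FPKM in Hevin, 209.7, 236, 219 and 203 FPKM in LPS and 168, 174, 173 and 173 FPKM in Media. Every LPS library lay above every Media library, and every Hevin library lay below every Media library, the closest pair being 165 and 168 FPKM. The log2 fold change was -0.27 ± 0.0762 in Hevin against Media (adjusted p = 0.0272) and 0.33 ± 0.0762 in LPS against Media (adjusted p = 0.00509). The Hevin call ended without the replicate block (adjusted p = 0.116), by quantile normalization (adjusted p = 0.123), and without any one of Hevin 3, Hevin 4, Media 1, Media 3 or Media 4 (adjusted p = 0.0523 to 0.110). The LPS direction turned to −0.11 by quantile normalization and was 0.00 without scaling factors. The difference between Rab1 and other genes of its step was not tested.

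Rab1b, the close relative of Rab1 in the same step, had 35.2, 36.4, 35.9 and 44.4 FPKM in Hevin, 33.6, 30.0, 33.1 and 32.1 FPKM in LPS and 37.6, 36.6, 37.6 and 40.4 FPKM in Media. It fell with LPS by 0.23 on the log2 scale (adjusted p = 0.0189), with all LPS libraries under all Media libraries. That call ended without the replicate block (adjusted p = 0.0606), without number 2 (adjusted p = 0.0676) and without LPS 4, Media 1 or Media 3 (adjusted p = 0.0535 to 0.0600). Rab33b, a Golgi Rab that binds the autophagy protein Atg16l1, had 13.1, 10.8, 8.79 and 10.4 FPKM in Hevin, 15.2, 15.5, 11.96 and 12.6 FPKM in LPS and 14.6, 13.0, 13.3 and 13.8 FPKM in Media. Its Hevin libraries were lower than the Media library of the same number in 4 of 4 numbers, though the groups overlapped, because Hevin 1 lay above Media 2. Its log2 fold change was -0.32 ± 0.0847 in Hevin against Media (adjusted p = 0.0195), and 0.132 was the adjusted p without the replicate block. The call also ended without Hevin 2, Hevin 3, Hevin 4, Media 3 or Media 4 (adjusted p = 0.0529 to 0.0893).

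Rab18, a Rab of the endoplasmic reticulum and of lipid droplets, rose with LPS, at 41.6 ± 2.21 FPKM, against 33.5 ± 3.15 FPKM in Media (SD, n = 4 each, log2 fold change 0.31 ± 0.0786, adjusted p = 0.00877). Its log2 fold change was −0.01 without scaling factors, and the call ended by quantile normalization and by upper quartile scaling. Rab6b, the less abundant of the pair of Golgi Rab6 genes, fell with LPS (2.11 ± 0.697 FPKM, against 2.96 ± 0.681 FPKM in Media, log2 fold change -0.36 ± 0.0978, adjusted p = 0.0117, and 0.222 without the replicate block). Rab6a, Rab2a, Rab2b and Rab43, also of the Golgi, were called in none of the comparisons. With the deposited scaling, Rab6a was the steadiest in level of these, at 40.5 ± 5.46 FPKM in Hevin, 40.7 ± 1.54 FPKM in LPS and 40.6 ± 1.22 FPKM in Media. In Hevin against LPS each of these genes was called under some alternatives, with a lowest adjusted p of 0.00207 to 0.00516. So were Rab6a, Rab2b and Rab43 in LPS against Media (lowest adjusted p = 0.00264 to 0.00944).

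At the early endosome, LPS raised Rab20, Rab5a, Rab22a and Rab31, and Hevin changed no member past the threshold. Rab20 is known in macrophages for its place on maturing phagosomes. Its level was 57.3, 56.5, 46.3 and 50.0 FPKM in Hevin, 165, 133, 129 and 143 FPKM in LPS and 57.6, 70.4, 52.7 and 45.2 FPKM in Media. Each LPS library exceeded every other library, and Hevin and Media overlapped. On the log2 scale the difference was 1.33 ± 0.0987 in LPS against Media (adjusted p = 1.69e-06) and -1.42 ± 0.0987 in Hevin against LPS (adjusted p = 6.26e-07). On GRCm38 the gene lies on chromosome 8 at 11453518 to 11478710, and 25.6% of its exon bases lie under an opposite-strand transcript, E230013L22Rik. Whether the authors counted by strand is not given in the sources used here.

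Rab5a, one of the 3 Rab5 genes that drive fusion of early endosomes, had 52.5, 55.8, 37.8 and 42.8 FPKM in Hevin, 63.0, 65.9, 70.5 and 58.8 FPKM in LPS and 48.0, 45.1, 43.2 and 48.4 FPKM in Media. All 4 of its LPS libraries lay above the others, and the log2 fold change was 0.47 ± 0.104 in LPS against Media (adjusted p = 0.00393). The call ended by quantile normalization (adjusted p = 0.109) and without scaling factors (adjusted p = 0.225). Its relatives did not follow it past the threshold. Rab5c, the most abundant early endosome Rab in Media, had 114, 101, 118 and 131 FPKM in Hevin, 125, 98.7, 124 and 131 FPKM in LPS and 116, 108, 129 and 137 FPKM in Media. The 3 groups overlapped, with log2 fold changes of -0.08 ± 0.0564 in Hevin against Media (adjusted p = 0.374) and -0.04 ± 0.0564 in LPS against Media (adjusted p = 0.627). Under other scalings Rab5c was called lower with LPS. The value was −0.44 by quantile normalization (adjusted p = 8.82e-05), −0.16 by upper quartile scaling (adjusted p = 0.0290) and −0.36 without scaling factors (adjusted p = 2.11e-04). Rab5b averaged 38.8 ± 1.39 FPKM in Hevin, 33.7 ± 2.23 FPKM in LPS and 33.7 ± 4.05 FPKM in Media, and was higher in Hevin than in LPS (log2 fold change 0.20 ± 0.0705, adjusted p = 0.0317, and 0.107 without the replicate block). That call also ended without number 2 (adjusted p = 0.0557) and without Hevin 1, Hevin 2, LPS 1 or LPS 3 (adjusted p = 0.0644 to 0.121). The difference of one Rab5 gene from another was not tested.

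Rab31 and Rab22a, a pair of relatives of Rab5 that serve transport between the Golgi and endosomes, also rose with LPS. Rab31 had 83.9, 87.0, 62.1 and 75.8 FPKM in Hevin, 139.7, 88.0, 88.7 and 132 FPKM in LPS and 103, 90.9, 67.3 and 74.7 FPKM in Media. LPS 1 and LPS 4 stood above all other libraries, while LPS 2 and LPS 3 lay within the Media range. The log2 fold change was 0.40 ± 0.122 in LPS against Media (adjusted p = 0.0216), and the call ended without the replicate block (adjusted p = 0.136), by 3 other scalings, and without LPS 1, LPS 3, LPS 4, Media 3 or Media 4 (adjusted p = 0.0517 to 0.0808). Under those scalings the log2 fold change was 0.28 by upper quartile, 0.01 by quantile and 0.07 without factors. Rab22a was more even, at 53.4 ± 6.13 FPKM in LPS, against 40.3 ± 2.87 FPKM in Media (log2 fold change 0.39 ± 0.0694, adjusted p = 9.99e-04, LPS higher in 4 of 4 numbers). That call ended by quantile normalization (adjusted p = 0.0553) and without scaling factors (adjusted p = 0.350). Rab21, an early endosome Rab linked to integrin traffic, was called in none of the comparisons.

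Among the recycling Rabs, Rab15 rose with Hevin and both Rab4 genes fell with LPS. Rab15 acts at early and recycling endosomes. It had 42.6, 59.4, 29.6 and 33.1 FPKM in Hevin, 34.0, 43.2, 13.4 and 17.2 FPKM in LPS and 22.7, 36.6, 13.7 and 14.3 FPKM in Media. The spread within a group was wide, with number 2 highest and number 1 next in each, so the groups overlapped. Within each number the Hevin library was the highest of the 3. The log2 fold change in Hevin against Media was 0.95 ± 0.118 (adjusted p = 2.42e-04), and the call ended without the replicate block (adjusted p = 0.185). Without the 3 libraries numbered 2 the adjusted p was 8.58e-04 with the block. In LPS against Media the log2 fold change was 0.26 ± 0.118 (adjusted p = 0.103), and in Hevin against LPS it was 0.69 ± 0.118 (adjusted p = 5.01e-04, and 0.175 without the replicate block). The summed neutrophil markers were also highest in number 2. Their part in the level of Rab15 was not tested.

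Rab4a and Rab4b direct rapid return from the early endosome to the surface. Rab4a, a low transcript, had 2.32, 2.40, 3.53 and 3.64 FPKM in Hevin, 1.45, 1.08, 1.79 and 1.37 FPKM in LPS and 3.05, 1.02, 3.10 and 3.46 FPKM in Media. Media 2 lay below all LPS libraries, and the other 3 Media libraries lay above them. Its log2 fold change was -0.54 ± 0.157 in LPS against Media (adjusted p = 0.0177), with 0.110 as the adjusted p without the replicate block. That call also ended without LPS 4, Media 1 or Media 4 (adjusted p = 0.0648 to 0.0742). In Hevin against LPS, where the libraries did not overlap, the log2 fold change was 0.70 ± 0.157 (adjusted p = 0.00284), and this call held in the 23 alternatives in which the gene was tested.

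Rab4b had 11.4, 11.4, 12.3 and 11.9 FPKM in Hevin, 9.63, 8.52, 10.3 and 9.26 FPKM in LPS and 11.7, 11.4, 10.6 and 11.3 FPKM in Media, and every LPS library was the lowest of its number. The fall with LPS was 0.24 on the log2 scale (adjusted p = 0.0242) and ended in 8 alternatives, among them leaving out number 2 (adjusted p = 0.105) and limma-voom on recovered reads (adjusted p = 0.0867). In those that left out a single library, LPS 2, LPS 4, Media 1, Media 2 or Media 4, the adjusted p was 0.0546 to 0.0815. An overlapping transcript on the same strand, Gm21983, and a microRNA cover 65.0% of the exon bases of Rab4b, so its value is uncertain.

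With the deposited scaling, the abundant recycling Rabs moved little. Rab14, which serves the Golgi and recycling endosomes, had 103, 98.2, 81.0 and 87.9 FPKM in Hevin, 95.0, 92.2, 90.5 and 88.1 FPKM in LPS and 98.9, 87.5, 90.1 and 94.3 FPKM in Media. Its log2 fold changes were -0.01 ± 0.0660 and -0.02 ± 0.0660 against Media, for Hevin and LPS (adjusted p = 0.963 and 0.844), with a sign that turned under several alternatives. It was called lower with LPS by quantile normalization (−0.39, adjusted p = 0.00101) and without scaling factors (−0.34, adjusted p = 9.42e-04). Under the same scalings Hevin was called higher than LPS, by 0.42 (adjusted p = 4.65e-04) and 0.37 (adjusted p = 4.81e-04). Rab35, a Rab of fast recycling, had 70.0, 68.4, 65.1 and 68.0 FPKM in Hevin, 89.0, 77.5, 69.2 and 75.5 FPKM in LPS and 78.7, 77.4, 72.5 and 71.3 FPKM in Media. All Hevin libraries lay below all Media libraries, yet the log2 fold change of -0.14 ± 0.0598 was not called (adjusted p = 0.122). Against LPS, Hevin was lower by 0.19 (adjusted p = 0.0189, and 0.0841 without the replicate block). That direction turned to a called 0.16 both by quantile normalization (adjusted p = 0.0271) and without scaling factors (adjusted p = 0.0277). The call as lower held in 16 of 24 alternatives and ended, among others, by upper quartile scaling (−0.061, adjusted p = 0.368), without number 2 (adjusted p = 0.0524) and without Hevin 1 or LPS 1 (adjusted p = 0.0679 and 0.0655). Rab11a, the main Rab of slow recycling, averaged 44.5 ± 4.48 FPKM in Hevin, 55.5 ± 2.78 FPKM in LPS and 49.7 ± 4.78 FPKM in Media. It was lower in Hevin than in LPS (log2 fold change -0.32 ± 0.0923, adjusted p = 0.0127), with 0.03 in its place without scaling factors. That call also ended by quantile normalization (−0.046, adjusted p = 0.685), by upper quartile scaling (−0.19, adjusted p = 0.0938) and without Hevin 3, Hevin 4 or LPS 3 (adjusted p = 0.0530 to 0.0573). Its relative Rab11b was called in none of the comparisons.

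On the way to the lysosome, LPS raised Rab12 and Rab9 and lowered Rab7b and Rab39. Rab12 directs cargo such as the transferrin receptor to degradation. It had 28.7, 26.1, 26.3 and 23.3 FPKM in Hevin, 66.8, 86.5, 75.7 and 71.1 FPKM in LPS and 24.7, 25.6, 28.0 and 26.1 FPKM in Media. All 4 LPS libraries stood far above the other 8, and Hevin and Media overlapped. On the log2 scale the difference was 1.48 ± 0.0842 in LPS against Media (adjusted p = 2.67e-07) and -0.00 ± 0.0842 in Hevin against Media (adjusted p = 0.984). On GRCm38 the gene lies on chromosome 17 at 66494512 to 66519729, minus strand.

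Rab7b, a late endosomal Rab that in macrophages was described to send Toll-like receptor 4 to degradation, went the other way. It had 136, 129, 100.3 and 114 FPKM in Hevin, 73.9, 50.4, 31.8 and 41.1 FPKM in LPS and 144, 129, 96.7 and 101 FPKM in Media. All 4 LPS libraries lay below the other 8, and the order of the numbers was alike in the 3 groups, with number 1 highest and number 3 lowest. The log2 fold change was -1.29 ± 0.104 in LPS against Media (adjusted p = 3.41e-06) and 0.04 ± 0.104 in Hevin against Media (adjusted p = 0.838). The gene lies on chromosome 1 at 131688695 to 131715439, plus strand.

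Rab9, which returns mannose 6-phosphate receptors from the late endosome to the Golgi, rose in both treatments. Its level was 26.1, 30.1, 29.4 and 24.8 FPKM in Hevin, 40.3, 37.8, 37.8 and 43.1 FPKM in LPS and 18.8, 25.4, 20.8 and 18.7 FPKM in Media. The LPS libraries were the 4 highest, and in each number the Hevin library lay between the LPS and the Media library. Media 2, at 25.4 FPKM, exceeded Hevin 4. Its log2 fold change was 0.39 ± 0.0942 in Hevin against Media (adjusted p = 0.0139) and 0.90 ± 0.0942 in LPS against Media (adjusted p = 2.39e-05). The Hevin call ended without Hevin 3, Media 1 or Media 4 (adjusted p = 0.0504 to 0.0600). In Hevin against LPS the log2 fold change was -0.51 ± 0.0942 (adjusted p = 8.19e-04), and −0.17 without scaling factors (adjusted p = 0.114).

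Rab7, the main Rab of late endosomes and lysosomes, was the most abundant of this step. It had 152, 154, 137 and 143 FPKM in Hevin, 180.5, 196, 164 and 187 FPKM in LPS and 149, 178, 162 and 167 FPKM in Media. Neither change against Media was called, at -0.16 ± 0.0614 for Hevin (adjusted p = 0.0831) and 0.14 ± 0.0614 for LPS (adjusted p = 0.0793). The LPS value turned to a called fall, of −0.28 by quantile normalization (adjusted p = 0.00275) and −0.18 without scaling factors (adjusted p = 0.0159). Hevin was lower than LPS by 0.31 (adjusted p = 0.00138). That direction turned to a called 0.24 by quantile normalization (adjusted p = 0.00455) and to 0.05 without scaling factors (adjusted p = 0.482). Rab39, a phagosomal Rab, had 7.03, 4.83, 4.16 and 4.31 FPKM in Hevin, 4.17, 2.88, 3.03 and 2.73 FPKM in LPS and 6.90, 2.74, 4.31 and 5.19 FPKM in Media. LPS was lower in 3 of 4 numbers, with Media 2 as the exception. On the log2 scale the difference was -0.42 ± 0.134 in LPS against Media (adjusted p = 0.0253), and the call ended in 8 alternatives, among them no replicate block (adjusted p = 0.176) and leaving out LPS 1, LPS 4, Media 1, Media 3 or Media 4 (adjusted p = 0.0725 to 0.0977). Rab24, Rab34 and Rab39b were called in none of the comparisons, and 62.4% of the exon bases of Rab24 lie under the opposite-strand gene Prelid1.

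**Figure D3:**
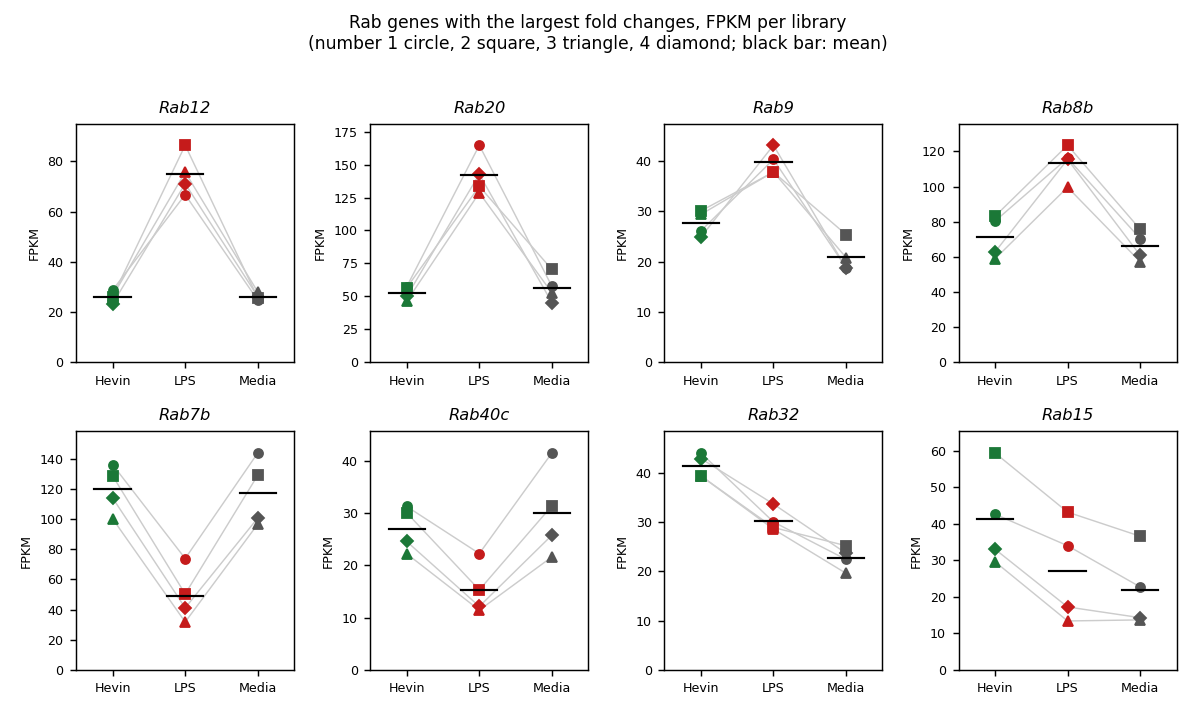
FPKM per library for the 8 Rab genes with the largest log2 fold changes with LPS or Hevin, with 1 panel per gene and Hevin, LPS and Media from left to right; symbols mark the number, grey lines join libraries of a number and the black bar is the group mean. The 4 LPS points stand above all others for Rab12, Rab20, Rab9 and Rab8b and below them for Rab7b, and the 4 Hevin points stand above all others for Rab32.

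Among the Rabs of secretion, both Rab8 genes rose with LPS and Hevin changed none past the threshold. Rab8b, which with Rab8a serves transport to the plasma membrane, had 80.3, 83.1, 58.8 and 62.7 FPKM in Hevin, 116, 124, 99.6 and 115 FPKM in LPS and 70.4, 75.7, 57.2 and 60.8 FPKM in Media. The LPS libraries were the 4 highest. The log2 fold change was 0.78 ± 0.0654 in LPS against Media (adjusted p = 4.35e-06) and 0.10 ± 0.0654 in Hevin against Media (adjusted p = 0.310). Rab8a averaged 40.3 ± 2.87 FPKM in Hevin, 53.0 ± 5.18 FPKM in LPS and 43.9 ± 2.25 FPKM in Media. It rose by less with LPS (log2 fold change 0.26 ± 0.0814, adjusted p = 0.0241) and turned to −0.06 without scaling factors. That call also ended by quantile and upper quartile scaling and when LPS 1, LPS 4, Media 1 or Media 4 was left out (adjusted p = 0.0584 to 0.0945).

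Rab10, which delivers membrane proteins to the surface, had 116, 102, 89.3 and 90.3 FPKM in Hevin, 128, 123, 103 and 114 FPKM in LPS and 128, 108, 94.9 and 104 FPKM in Media. The groups overlapped, and neither change against Media was called (adjusted p = 0.128 for Hevin and 0.137 for LPS). Hevin was lower than LPS by 0.24 (adjusted p = 0.00377, and 0.117 without the replicate block). That direction turned to a called 0.20 by quantile normalization (adjusted p = 0.0164) and to 0.12 without scaling factors (adjusted p = 0.0813). By upper quartile scaling the value was −0.11 (adjusted p = 0.128). Rab3a, Rab13 and the granule Rabs Rab3d, Rab27a and Rab44 were low, with group means of 0.777 to 1.98 FPKM. Rab3a, known from synaptic vesicles, averaged 1.39 ± 0.523 FPKM in Hevin, 0.906 ± 0.711 FPKM in LPS and 0.906 ± 0.582 FPKM in Media. It was higher in Hevin than in LPS (log2 fold change 0.37 ± 0.131, adjusted p = 0.0327, and 0.311 without the replicate block). The call held in 14 of 23 alternatives. It also ended without number 2 (adjusted p = 0.101), by voom on recovered reads (adjusted p = 0.25), by quantile normalization (adjusted p = 0.137) and without Hevin 1, Hevin 2, LPS 1, LPS 2 or LPS 4 (adjusted p = 0.0687 to 0.127). Neuronal markers were present at low level in all libraries, and their part in the level of Rab3a was not tested.

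The granule Rabs Rab44, Rab27a and Rab3d stood highest in the libraries numbered 2. Rab44, a large Rab of granule-bearing blood cells, had 0.298, 3.02, 0.277 and 0.389 FPKM in Hevin, 0.261, 3.70, 0.448 and 0.457 FPKM in LPS and 0.166, 3.42, 0.331 and 0.155 FPKM in Media. In reads, number 2 had 285 in Hevin, 320 in LPS and 272 in Media, and no other library exceeded 45. Rab27a, which docks secretory granules and lysosome-related organelles, had 1.45, 3.09, 0.898 and 0.783 FPKM in Hevin, 0.496, 2.75, 0.546 and 0.528 FPKM in LPS and 0.637, 3.28, 0.427 and 0.556 FPKM in Media. Rab3d, also on secretory granules, had 0.978, 3.14, 1.23 and 1.56 FPKM in Hevin, 0.441, 1.45, 0.560 and 0.657 FPKM in LPS and 0.977, 2.47, 0.875 and 1.14 FPKM in Media. For each of these 3 genes the number 2 library was the highest of its group in all groups, as were the summed neutrophil markers. The part of neutrophils in these levels was not tested. Rab3d fell with LPS in 4 of 4 numbers (log2 fold change -0.40 ± 0.0929, adjusted p = 0.00538), with an adjusted p of 0.299 without the replicate block and 0.0220 without number 2. Rab27a was higher in Hevin than in LPS (log2 fold change 0.34 ± 0.120, adjusted p = 0.0310), with an adjusted p of 0.543 without the replicate block and 0.0201 without number 2. The call held in 16 of 23 alternatives, and also ended by quantile normalization (adjusted p = 0.149), by voom on recovered reads (adjusted p = 0.0914), in the fit of these groups only (adjusted p = 0.0524) and without Hevin 1, Hevin 3 or LPS 1 (adjusted p = 0.0798 to 0.122).

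**Figure D4:**
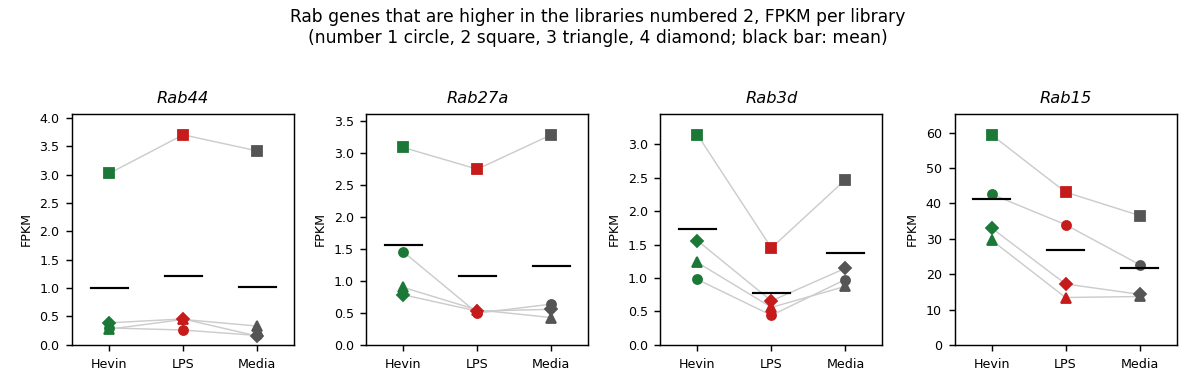
FPKM per library for 4 Rab genes that are higher in the libraries numbered 2 (squares), with Hevin, LPS and Media from left to right in each panel and the black bar at the group mean. For Rab44 the squares lie at 3.02, 3.70 and 3.42 FPKM, while all other libraries lie below 0.5 FPKM.

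Rab32 rose with Hevin and, by less, with LPS. It serves lysosome-related organelles and, in macrophages, the defence of phagosomes against bacteria. It had 44.1, 39.4, 39.4 and 42.9 FPKM in Hevin, 30.0, 28.9, 28.6 and 33.7 FPKM in LPS and 22.4, 25.2, 19.6 and 23.7 FPKM in Media. The 3 groups did not overlap at all, with Hevin highest, LPS next and Media lowest. Its log2 fold change was 0.84 ± 0.0725 in Hevin against Media (adjusted p = 2.03e-05), 0.40 ± 0.0725 in LPS against Media (adjusted p = 0.00115) and 0.44 ± 0.0725 in Hevin against LPS (adjusted p = 3.98e-04). The Hevin calls, against Media and against LPS, held under all 24 alternatives, and the LPS call ended without scaling factors (adjusted p = 0.301). The gene lies on chromosome 10 at 10545002 to 10558265, minus strand, and shares no exon base with another annotated gene.

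Rab29, a relative of Rab32 and a partner of the kinase Lrrk2, had 7.50, 6.69, 7.65 and 6.84 FPKM in Hevin, 6.55, 2.39, 4.15 and 5.74 FPKM in LPS and 6.79, 4.12, 8.64 and 7.91 FPKM in Media. It was lower with LPS in 4 of 4 numbers, but the groups overlapped. On the log2 scale the difference was -0.49 ± 0.165 in LPS against Media (adjusted p = 0.0345), and the call ended without the replicate block (adjusted p = 0.167), by quantile normalization (adjusted p = 0.0659) and without LPS 2, LPS 3, Media 3 or Media 4 (adjusted p = 0.0882 to 0.130). With Hevin the log2 fold change was 0.09 ± 0.165 (adjusted p = 0.734).

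Of the Rabs with other tasks, Rab40c carries a SOCS box that builds a ubiquitin ligase. It had 31.3, 30.1, 22.2 and 24.6 FPKM in Hevin, 22.3, 15.3, 11.4 and 12.1 FPKM in LPS and 41.5, 31.4, 21.6 and 25.8 FPKM in Media. The LPS library was the lowest of its number in all 4, although LPS 1 lay above Media 3. The log2 fold change was -0.94 ± 0.0863 in LPS against Media (adjusted p = 9.00e-06) and -0.12 ± 0.0863 in Hevin against Media (adjusted p = 0.357). Rab23, an inhibitor of Hedgehog signalling, and Rab28, a ciliary Rab, were called in none of the comparisons.

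Set directly against each other, Hevin and LPS differed at 29 of 43 Rab genes, with 14 higher and 15 lower in Hevin. That is 67.4%, against 57.9% of all genes tested that were called in this comparison (29.9% higher and 28% lower). The median log2 fold change was −0.02 over the Rab genes and 0.02 over all genes tested. This comparison uses the same Hevin and LPS libraries as those against Media, which in turn share the Media libraries, so the 3 sets of calls are not independent. Rab32, Rab15, Rab7b, Rab40c and both Rab4 genes were higher in Hevin, and Rab12, Rab20, Rab8b, Rab9 and Rab1 were lower. Rab1 was the gene with opposite calls against Media, and its log2 fold change was -0.60 ± 0.0762 in Hevin against LPS (adjusted p = 6.10e-05), or −0.051 by quantile normalization (adjusted p = 0.559). Called here but against Media in neither treatment were 7 genes, namely Rab5b, Rab3a and Rab27a, higher in Hevin, and Rab10, Rab35, Rab7 and Rab11a, lower in Hevin. Without the replicate block 6 genes were higher and 13 lower, against 41.7% of all genes called, and without the 3 libraries numbered 2 they were 10 and 14. In none of the 3 comparisons were the other 14 tested members called in the main fit with the block. In Hevin against LPS, all of these but Rab23, Rab13 and Rab39b were called under some alternatives (lowest adjusted p = 5.01e-05 to 0.00587). In LPS against Media, all but Rab23, Rab2a and Rab39b were (lowest adjusted p = 8.82e-05 to 0.0331). In Hevin against Media only Rab2a was (lowest adjusted p = 0.0248).

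The genes that act on Rabs were taken as 5 lists with 132 names, of which 126 were listed and 113 tested. With Hevin 14 were higher and 17 lower, or 27.4%, against 21.4% of all genes. With LPS 24 were higher and 33 lower, or 50.4%, against 43.7% of all genes, and in Hevin against LPS 43 were higher and 25 lower, or 60.2%, against 57.9% of all genes. Without the replicate block these splits were 4 and 3, 15 and 17, and 29 and 19. Without Hevin 4 the Hevin count against Media was 20. Without scaling factors the LPS split was 10 higher and 77 lower and that of Hevin against LPS 80 and 14. By upper quartile scaling they were 20 and 51, and 55 and 20. Under these scalings the median over all genes tested moved as well, as given above. No p is given for a list as a whole.

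The carriers and prenylation enzymes numbered 8, all tested, with 0 higher and 2 lower with Hevin and 2 higher and 1 lower with LPS. That is 25% with Hevin and 37.5% with LPS, against 21.4% and 43.7% of all genes tested. Chml, an escort protein that presents new Rabs for prenylation, moved both ways, with 7.49, 7.69, 5.24 and 6.36 FPKM in Hevin, 15.9, 19.0, 16.7 and 15.5 FPKM in LPS and 11.9, 9.77, 10.3 and 10.9 FPKM in Media. The 3 groups did not overlap. Its log2 fold change was -0.62 ± 0.103 in Hevin against Media (adjusted p = 0.00175) and 0.60 ± 0.103 in LPS against Media (adjusted p = 8.44e-04). Rabggtb, the catalytic subunit of the enzyme that adds the anchor, was also lower with Hevin (-0.32 ± 0.0650, adjusted p = 0.00541) and higher with LPS (0.25 ± 0.0650, adjusted p = 0.0108) on the log2 scale. Both calls ended without the replicate block (adjusted p = 0.0793 and 0.0917), and the LPS value turned to −0.08 without scaling factors. The LPS call also ended by quantile normalization (0.04, adjusted p = 0.687) and by upper quartile scaling (0.13, adjusted p = 0.129).

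Of 35 exchange factors tested, 1 was higher and 4 were lower with Hevin, and 7 were higher and 11 lower with LPS. That is 14.3% with Hevin and 51.4% with LPS, against 21.4% and 43.7% of all genes tested. Rabgef1, the exchange factor of Rab5, had 28.9, 29.3, 28.6 and 27.2 FPKM in Hevin, 51.4, 61.2, 62.1 and 64.3 FPKM in LPS and 27.7, 27.9, 34.0 and 29.7 FPKM in Media. Its LPS libraries were the 4 highest, with a log2 fold change of 0.98 ± 0.0769 in LPS against Media (adjusted p = 2.79e-06). Mon1b, a subunit of the factor that activates Rab7, had 10.2, 9.64, 10.4 and 10.4 FPKM in Hevin, 20.8, 21.1, 19.7 and 20.4 FPKM in LPS and 11.4, 11.99, 11.5 and 10.8 FPKM in Media. The groups did not overlap, and the log2 fold change was 0.79 ± 0.0659 in LPS against Media (adjusted p = 4.14e-06). Dennd1a, an exchange factor of Rab35, rose with LPS by 0.70 ± 0.104 (adjusted p = 3.36e-04), and Dennd2c changed by -0.71 ± 0.0868 (adjusted p = 8.06e-05). With Hevin, Ric1, part of the exchange factor of Rab6, rose by 0.52 ± 0.0922 (adjusted p = 0.00243, and 0.0508 without the replicate block). Ric1 rose with LPS too, by 0.43 ± 0.0922 (adjusted p = 0.00341, and 0.241 without scaling factors). Rab3gap2, part of the exchange factor of Rab18, was lower with Hevin, at 18.6 ± 3.65 FPKM, against 26.4 ± 3.64 FPKM in Media (adjusted p = 8.41e-04, and 0.131 without the replicate block). With LPS it was also lower, at 18.8 ± 4.88 FPKM (adjusted p = 3.46e-04, and 0.0611 without the replicate block).

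Of 32 GTPase-activating proteins tested, 6 were higher and 3 lower with Hevin, and 6 were higher and 8 lower with LPS. That is 28.1% with Hevin and 43.75% with LPS, against 21.4% and 43.7% of all genes tested. Tbc1d22a had 25.5, 24.0, 19.6 and 24.3 FPKM in Hevin, 17.6, 12.6, 11.3 and 13.5 FPKM in LPS and 19.7, 15.8, 13.5 and 15.1 FPKM in Media, and Hevin exceeded Media in 4 of 4 numbers. Hevin differed from Media by 0.52 ± 0.0728 on the log2 scale (adjusted p = 5.28e-04). Tbc1d13, which acts on Rab35, rose with Hevin by 0.42 ± 0.0976 (adjusted p = 0.0112, and 0.272 without the replicate block). With LPS, Tbc1d9 rose by 0.70 ± 0.114 (adjusted p = 6.27e-04) and Tbc1d1 by 0.45 ± 0.0944 (adjusted p = 0.00280, and 0.186 without scaling factors). Sgsm3 changed by -0.43 ± 0.0988 (adjusted p = 0.00511) and Tbc1d16, which acts on Rab4, by -0.42 ± 0.0973 (adjusted p = 0.00500, and 0.541 without the replicate block).

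Effectors held the largest change of the 5 lists. Of 35 tested, 5 were higher and 7 lower with Hevin, and 8 were higher and 13 lower with LPS. That is 34.3% with Hevin and 60% with LPS, against 21.4% and 43.7% of all genes tested. Rab11fip1, a Rab11 effector of the recycling endosome, had 4.01, 3.68, 6.42 and 5.26 FPKM in Hevin, 34.2, 42.0, 48.8 and 55.4 FPKM in LPS and 5.07, 4.92, 8.08 and 6.68 FPKM in Media. The LPS libraries stood far above the rest, with a log2 fold change of 2.68 ± 0.0924 in LPS against Media (adjusted p = 9.92e-09). Its relative Rab11fip5 went down, with 31.9, 22.4, 20.7 and 26.9 FPKM in Hevin, 20.2, 9.35, 9.23 and 9.87 FPKM in LPS and 34.1, 20.6, 22.0 and 27.0 FPKM in Media. Each LPS library lay below all others, and the log2 fold change was -1.08 ± 0.106 (adjusted p = 1.52e-05).

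Inpp5b, a phosphoinositide phosphatase that binds Rab5, was lower with Hevin and higher with LPS. It had 15.1, 13.2, 10.3 and 11.3 FPKM in Hevin, 60.4, 45.1, 37.7 and 52.6 FPKM in LPS and 26.8, 23.8, 16.7 and 19.5 FPKM in Media. The 3 groups did not overlap, and the log2 fold change was -0.75 ± 0.0819 in Hevin against Media (adjusted p = 1.03e-04) and 1.14 ± 0.0819 in LPS against Media (adjusted p = 1.34e-06). Rilpl2, which binds phosphorylated Rab8 and Rab10, had 23.3, 34.4, 16.6 and 19.4 FPKM in Hevin, 82.4, 98.4, 66.3 and 55.5 FPKM in LPS and 45.8, 51.4, 31.6 and 35.6 FPKM in Media. Within every number LPS was highest and Hevin lowest. On the log2 scale the difference was -0.81 ± 0.0881 in Hevin against Media (adjusted p = 9.95e-05, and 0.0588 without the replicate block) and 0.86 ± 0.0881 in LPS against Media (adjusted p = 2.16e-05). Mical1, an actin-oxidizing enzyme that binds Rab1, Rab8 and Rab10, had 18.1, 21.8, 12.2 and 15.4 FPKM in Hevin, 8.71, 11.1, 3.74 and 4.69 FPKM in LPS and 18.2, 26.1, 11.4 and 13.1 FPKM in Media. All LPS libraries lay below all others, with a log2 fold change of -1.21 ± 0.109 (adjusted p = 7.42e-06).

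Of the kinases and phosphatases, Tbk1, which phosphorylates Rab7, rose with LPS and fell with Hevin. It averaged 43.1 ± 2.97 FPKM in Hevin, 63.3 ± 5.37 FPKM in LPS and 50.7 ± 1.89 FPKM in Media (adjusted p = 0.0382 for Hevin and 0.00466 for LPS), and the LPS log2 fold change turned to −0.01 without scaling factors. The LPS call also ended by quantile normalization (0.06, adjusted p = 0.492). The Hevin call ended without the replicate block (adjusted p = 0.114) and in 7 of the 12 fits that left out 1 library (adjusted p = 0.0547 to 0.143). It also ended in the fit without a mean-variance trend (adjusted p = 0.0605) and without number 2 (adjusted p = 0.0506). Ppm1h, which removes the phosphate that Lrrk2 adds to Rab8 and Rab10, rose with Hevin by 0.30 ± 0.0784 on the log2 scale (adjusted p = 0.0208, and 0.284 without the replicate block), and that call ended in 6 fits that left out 1 library (adjusted p = 0.0503 to 0.0779). It also ended without number 2 (adjusted p = 0.0852). Lrrk2 itself was not tested. It had 0.442, 2.61, 0.881 and 0.633 FPKM in Hevin, 0.261, 2.74, 0.765 and 0.618 FPKM in LPS and 0.179, 2.36, 0.487 and 0.503 FPKM in Media, highest in number 2 of every group, as were the summed neutrophil markers.

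**Figure D5:**
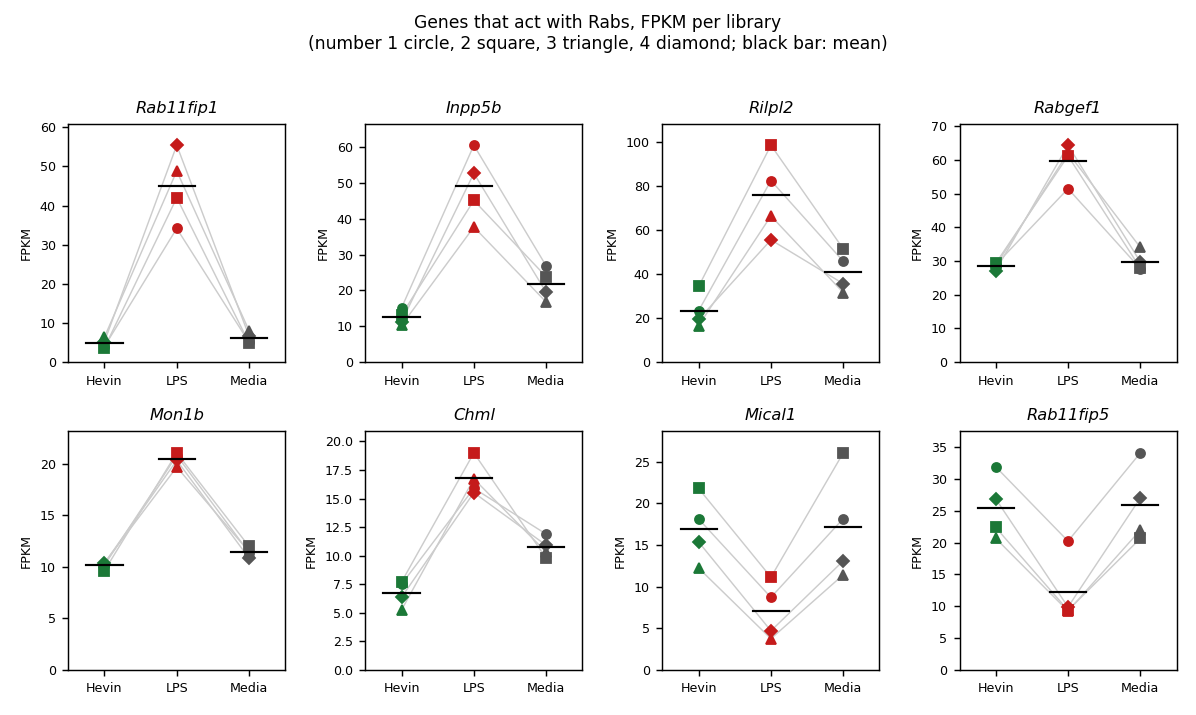
FPKM per library for 8 genes that act with Rabs, with Hevin, LPS and Media from left to right in each panel; symbols mark the number, grey lines join libraries of a number and the black bar is the group mean. For Rab11fip1 the LPS mean is 45.1 FPKM, against 4.84 FPKM in Hevin and 6.19 FPKM in Media, and for Mical1 and Rab11fip5 the LPS points lie lowest.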

How the data were processed

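RNA with poly(A) was made into stranded libraries and read as pairs of 100 bases, per the labels' protocols. The authors deposited FPKM values in 1 table by gene symbol. Tools and builds in the submitters' processing notes are edgeR 3.30.3 in R 4.0.0, featureCounts of Subread 1.6.3, Bowtie2 2.3.5.1, Trimmomatic 0.39, FastQC 0.11.7 and mm10, with no role or order. Which annotation and row filter were used, and whether counting was by strand, is not given in the sources used here.

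Whole reads were recovered from the FPKM steps in 14541 of 14541 listed genes, within 0.1 of a whole number, and gave depth and scaling factors. To be tested, a gene needed 1 FPKM or more in 4 or more libraries, which 11242 did. The values log2(FPKM + 1), a scale that understates the change of low genes, were fitted with limma 3.58.1 (R 4.3.3), using a mean-variance trend and the number as a block. P-values were adjusted by Benjamini-Hochberg over all genes tested. The block was used because these genes were to be compared by number. Same-numbered libraries deviated together in 12 of 12 pairs (r = 0.230 to 0.784, mean 0.630). Pairs with different numbers gave r of −0.592 to 0.528, mean −0.201. Deviations were taken from each group mean, so they cancel within a group. This negative mean therefore follows from the positive one and adds no separate support for the pairing. For number 4 the correlations did not single out its own number, with LPS 4 at 0.230 with Media 4 and 0.528 with Media 3. The deposited column names also join same-numbered libraries, so the numbers were taken to pair them.

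Members, traffic steps and regulator lists were chosen with earlier results of these data known. Full values are given for the called Rab genes with the largest fold changes, up to 10 for each treatment against Media, and for Rab genes at 50 FPKM or more in Media. Of each regulator list, the 4 called genes with the largest LPS change and the 2 with the largest Hevin change were named, among those at 5 FPKM or more in 1 group. A gene under this rule is not reported here. Genes given beyond these, such as Lrrk2 and the low granule Rabs, were chosen after their values were seen. Alternatives were other pseudocounts, filters and scalings, no block, no trend, a fit of the compared groups only and leaving out each library. A voom fit of the recovered reads, values without the scaling factors and a fit without number 2 were chosen after seeing the data. Positions and exon overlap came from GENCODE M21 on GRCm38 for 49 of 50 genes. Rab1 was not matched, so it has no position or promoter here. Figures were drawn with matplotlib 3.10.9.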

Additional observations from a re-analysis of the deposited data

Results flagged for a closer look

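In 150 groups of 4 libraries, Dixon's criterion at the 95% level set 1 library apart from the other 3 a total of 11 times. Chance flags about 1 in 20 groups. Of these 11 cases, 8 were libraries numbered 2, the number whose neutrophil markers were high in every group. Rab44 had 3.02 FPKM in Hevin 2, 3.70 FPKM in LPS 2 and 3.42 FPKM in Media 2, each far above its group. Rab27a had 2.75 FPKM in LPS 2 and 3.28 FPKM in Media 2, and Rab3d had 2.47 FPKM in Media 2, again above the others. In the opposite direction, Media 2 was low for Rab4a, at 1.02 FPKM, and for Rab5b, at 27.6 FPKM. The other 3 were Rab23 in Media 1, low at 1.41 FPKM, Rab1b in Hevin 4, high at 44.4 FPKM, and Rab30 in Media 3, high at 1.58 FPKM.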

How the results depend on the processing

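Over 70 gene results, 1490 of 1670 alternative values kept their direction and side of the threshold, 132 ended a call, 8 gained one and 40 turned direction. These are results called in the fit with the block, or of Rab genes at 50 FPKM or more in Media. Uncalled results of less abundant Rab genes were not counted, and some of those gained a call. Rab6a and Rab43 in LPS against Media, for example, had a lowest adjusted p of 0.00389 and 0.00264. Some alternatives, such as other filters, no trend and no block, leave the fold change as it was, so no direction could turn there. The numbers were taken to pair the libraries, and without the replicate block fewer genes were called. In Hevin against Media that fit called 829 of all genes tested (2406 with the block), 2 Rab genes (5) and 7 regulators and effectors (31). In LPS against Media it called 2897 genes (4914), 13 Rab genes (20) and 32 regulators (57), and in Hevin against LPS 19 Rab genes (29). Without scaling factors LPS against Media had 7413 genes and 87 regulators called. Leaving out 1 library in turn gave 1571 to 2765 genes, 2 to 5 Rab genes and 20 to 33 regulators in Hevin against Media. The other counts stayed within 1.5 times under the alternatives run.

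Directions turned mostly with scaling. Without scaling factors, the log2 fold change in LPS against Media was −0.22 for Rab10, −0.28 for Rab35, −0.18 for Rab7, −0.062 for Rab8a and −0.012 for Rab18. By quantile normalization it was −0.11 for Rab1, −0.29 for Rab10, −0.26 for Rab35 and −0.28 for Rab7, and by upper quartile scaling −0.0097 for Rab10 and −0.069 for Rab35. Without factors and by quantile normalization, Rab10, Rab35 and Rab7 were called lower with LPS (adjusted p = 0.00194 to 0.0159). In Hevin against LPS the values without factors were 0.31 for Rab5c, 0.12 for Rab10, 0.16 for Rab35, 0.047 for Rab7 and 0.034 for Rab11a. By quantile normalization they were 0.45 for Rab5c, 0.20 for Rab10, 0.16 for Rab35 and 0.24 for Rab7, and by upper quartile scaling 0.089 for Rab5c. Rab5c and Rab35 were called higher in Hevin both without factors and by quantile normalization, and Rab10 and Rab7 by quantile normalization only (adjusted p = 5.01e-05 to 0.0277). Without number 2, Rab14 gave −0.013 there. In Hevin against Media, quantile normalization gave 0.0089 for Rab5c and 0.025 for Rab14, and Rab14 was 0.0052 by upper quartile scaling and 0.022 without factors.

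Leaving out 1 library turned the sign of uncalled values. In Hevin against Media these ran from −0.017 to 0.13 for Rab7b, −0.050 to 0.047 for Rab14 and −0.18 to 0.017 for Rab20. The values of Rab14 ran from −0.062 to 0.011 in LPS against Media and from −0.028 to 0.066 in Hevin against LPS, where Rab5c ran from −0.069 to 0.00050. The cause of these turns was not tested. Exon overlap with other genes adds doubt for Rab43, at 75.4% of its exon bases, and for Rab2b, at 64.0%. Depth limits the genes near 1 FPKM.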
